A study of Mus musculus with 71 samples.

Results

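The naive pluripotency genes examined here are Pou5f1, Sox2, Klf4, Klf2, Klf5, Tfcp2l1, Zfp42, Dppa3, Prdm14 and Tbx3, a list of names that uses no threshold on their values. They are 10 genes, with 12 accessions, of the 34010 RefSeq accessions in the RNA-seq tables of a mouse embryonic stem cell (mESC) study of linker histone H1. The study compared R1 mESCs, the wild-type (WT) line, with mESCs in which H1c, H1d and H1e (H1f2, H1f3 and H1f4) were knocked out together with CRISPR/Cas9 (H1-TKO), and grew both on gelatin in serum with leukaemia inhibitory factor (LIF). Knockout lines were made from single-cell clones, so a difference between genotypes cannot be told apart from a difference between clones. Of the study's samples, 4 poly(A) RNA-seq libraries (2 per genotype) and 1 H3K27me3 peak list per genotype were used.

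The genotype of the RNA-seq libraries is contradictory in the sources. The tables head 2 libraries KO and 2 libraries R1, whereas the sample labels call the KO-headed libraries WT and the R1-headed libraries knockout. The libraries are therefore called KO-named and R1-named throughout, and every direction below turns around if the sample labels are right. Reads of the targeted genes did not settle the question. H1f2 had normalized counts of 18.7 and 7.4 in the KO-named libraries and 11.6 and 56.7 in the R1-named libraries. H1f3 had 1.1 and 0.0 against 3.9 and 41.4, and H1f4 had 0.0 and 2.1 against 5.4 and 19.6. H1f5, which was not targeted, had 0.0 and 2.1 against 6.2 and 44.7, much like H1f3. The replacement-type linker histone H1f0, also not targeted, was higher in the KO-named libraries, with 1943.6 and 2118.0 normalized counts against 571.0 and 463.6 (3.94-fold, limma adjusted p = 0.00142), and so was H1f10, with 452.8 and 401.3 against 140.4 and 134.2 (3.09-fold, limma adjusted p = 0.00436). Whether these levels mark the knockout was not tested. The growth text of these samples also names HeLa, a human cell line, although their organism and strain fields give mouse R1 cells. Recovered reads ran from 6951619 to 10538507 per library.

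Pluripotency in mESCs is held by a network of transcription factors. Pou5f1 (OCT4) and Sox2 bind DNA together at the core of this network, and LIF, acting through STAT3, keeps up factors such as Klf4 and Tfcp2l1 that mark the naive state of the inner cell mass of the blastocyst. Many naive genes, such as Zfp42 and Klf4, are shut off as cells pass into the formative and primed states of the epiblast, whereas Pou5f1 and Sox2 stay expressed. Linker histones bind nucleosomes where DNA enters and leaves and help to compact chromatin.

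Sox2, Klf4, Klf5 and Tfcp2l1 were higher in the KO-named libraries, and no naive gene was called lower. Klf4, a zinc-finger factor downstream of LIF, differed by 2.73-fold, Sox2 by 2.06-fold, Tfcp2l1 by 1.96-fold and Klf5 by 1.495-fold. Pou5f1, Klf2, Zfp42, Dppa3 and Prdm14 did not pass the test, and Tbx3 could not be measured. The 4 genes called higher are 44.4% of the 9 genes tested, where 9.84% of all 11113 accessions tested were called higher and 10.7% lower. All 9 genes had a mean of at least 100 normalized counts, and among accessions at that level the share called higher was 12.7%. At an unadjusted p under 0.05 limma, edgeR and DESeq2 each gave 5 naive genes higher and 0 lower, where limma had 17.8% of all accessions higher and 19.8% lower. After adjustment edgeR called 3 naive genes higher (Sox2, Klf5 and Tfcp2l1) and 0 lower. Of all 11113 accessions it called 1057 higher and 1106 lower. DESeq2 called 4 naive genes higher and 0 lower, beside 1130 and 1287 of all accessions. Its 4 genes were not those of limma, because it called Klf2 (DESeq2 adjusted p = 0.00955) and not Klf4 (DESeq2 adjusted p = 0.136). A call is an adjusted p under 0.05 from limma, and the values in bulk RNA cannot tell more cells expressing a gene from more RNA per cell.

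The sequences just upstream of the 4 genes that were called are shown because all 4 were called in the same direction, and that of Zfp42 because it was the only naive gene with a POU octamer there. Each is the 250 bases before the outermost GENCODE M1 start, read 5′ to 3′ on the gene's strand from the mm9 assembly (NCBIM37). Capitals mark matches on either strand to the POU octamer ATGCAAAT, to the SOX motif CATTGT or to the KLF motif CCNCNCCC, and overlapping matches run together.
Sox2 (chr3:34548677-34548926, plus strand): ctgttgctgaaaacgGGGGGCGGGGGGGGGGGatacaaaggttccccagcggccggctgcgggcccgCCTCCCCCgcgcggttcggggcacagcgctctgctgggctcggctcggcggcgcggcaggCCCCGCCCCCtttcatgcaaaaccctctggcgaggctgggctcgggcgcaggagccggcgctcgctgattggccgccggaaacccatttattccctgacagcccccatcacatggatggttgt
Klf4 (chr4:55545348-55545597, minus strand): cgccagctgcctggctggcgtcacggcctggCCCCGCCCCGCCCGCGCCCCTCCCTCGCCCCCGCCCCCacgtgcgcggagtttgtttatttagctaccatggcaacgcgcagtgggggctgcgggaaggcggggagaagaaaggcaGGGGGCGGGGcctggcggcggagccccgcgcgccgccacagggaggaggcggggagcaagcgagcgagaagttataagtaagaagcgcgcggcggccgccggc
Klf5 (chr14:99697660-99697909, plus strand): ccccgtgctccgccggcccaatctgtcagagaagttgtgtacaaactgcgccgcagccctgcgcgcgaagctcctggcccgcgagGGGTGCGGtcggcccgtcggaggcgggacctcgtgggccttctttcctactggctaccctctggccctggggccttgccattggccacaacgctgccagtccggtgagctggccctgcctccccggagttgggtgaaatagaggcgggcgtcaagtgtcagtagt
Tfcp2l1 (chr1:120524272-120524521, plus strand): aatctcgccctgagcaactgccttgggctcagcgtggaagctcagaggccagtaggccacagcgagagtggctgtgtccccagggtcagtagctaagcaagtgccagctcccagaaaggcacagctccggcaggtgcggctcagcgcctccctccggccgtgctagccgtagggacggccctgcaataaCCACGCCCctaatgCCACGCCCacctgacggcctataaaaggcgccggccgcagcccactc
Zfp42 (chr8:44392364-44392613, minus strand): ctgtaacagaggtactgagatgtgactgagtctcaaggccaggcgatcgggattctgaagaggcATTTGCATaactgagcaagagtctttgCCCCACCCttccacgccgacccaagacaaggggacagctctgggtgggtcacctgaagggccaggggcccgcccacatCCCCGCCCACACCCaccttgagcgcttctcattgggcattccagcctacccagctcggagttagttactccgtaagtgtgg
The octamer was found in 1 of the 10 upstream windows of the naive genes, where 1.63% of 22210 protein-coding windows of the same length held it, and in Zfp42 it reads ATTTGCAT. The SOX motif was in 0 of 10, against 9.1% of all windows. A KLF match was in 9 of 10 windows, the exception being Dppa3, and 50.6% of all windows held one. Sox2 and Klf4 had 9 KLF matches each, counted with overlaps, Tfcp2l1 had 2 and Klf5 had 1. The GC content of these windows was 70.8% for Sox2, 74.0% for Klf4, 67.2% for Klf5 and 65.2% for Tfcp2l1, where the median window had 54.0%. A letter match describes the sequence and is not a binding site.

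Sox2 (NM_011443, chr3:34548927-34551383), the partner of OCT4, had 3958.2 and 5440.7 normalized counts in the R1-named libraries and 9653.9 and 9460.0 in the KO-named libraries. The groups did not overlap, and the lowest KO-named value was 1.74 times the highest R1-named value. The log2 difference was 1.04 ± 0.16 (SE, n = 2 against 2, limma adjusted p = 0.00773), and it stayed between 0.81 and 1.27 with any 1 library left out.

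Tfcp2l1 (NM_023755, chr1:120524522-120581744), a CP2-type factor that LIF signalling sustains, had 4436.9 and 3938.7 normalized counts in the R1-named libraries and 8316.4 and 8055.0 in the KO-named libraries. The groups did not overlap, the lowest KO-named value being 1.815 times the highest R1-named value. The log2 difference was 0.97 ± 0.12 (SE, limma adjusted p = 0.00418). Chromosome 1, which carries Tfcp2l1 and Prdm14, was shifted as a whole, its median log2 difference over 617 accessions standing 0.52 above that of all accessions. With each chromosome's median removed, the log2 difference of Tfcp2l1 was 0.46 ± 0.10 (SE), still past the threshold (limma adjusted p = 0.0202).

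Klf4 (NM_010637, chr4:55540013-55545347) showed the largest fold and the widest spread of the called genes. It had 673.4 and 1747.4 normalized counts in the R1-named libraries, a 2.59-fold gap between replicates, and 3142.3 and 2796.3 in the KO-named libraries. The groups did not overlap, although R1-named replicate 2 was nearer to the KO-named values than to its own replicate on a log scale. The log2 difference of 1.45 ± 0.38 (SE, limma adjusted p = 0.0371) was 0.76 without R1-named replicate 1 and 2.14 without R1-named replicate 2. Count-based tests on the recovered reads did not call it (adjusted p = 0.0541 with edgeR and 0.136 with DESeq2).

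Klf5 (NM_009769, chr14:99697910-99712624), which shares targets with Klf2 and Klf4 in mESCs, had 1657.1 and 1801.9 normalized counts in the R1-named libraries and 2760.0 and 2419.2 in the KO-named libraries. Neither genotype's replicates reached the other's, and the log2 difference was 0.58 ± 0.13 (SE, limma adjusted p = 0.0235). Leaving out either KO-named library kept the difference at 0.49 or 0.68 but ended the call.

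Klf2 (NM_008452, chr8:74842932-74845555), the third of the naive KLF factors, had 1979.9 and 3452.3 normalized counts in the R1-named libraries and 4468.9 and 4612.0 in the KO-named libraries. Both KO-named values were above both R1-named values, yet the log2 difference of 0.80 ± 0.24 (SE) missed the threshold (limma adjusted p = 0.0529). Chromosome 8 as a whole stood 0.22 below the median of all accessions, and with chromosome medians removed Klf2 differed by 1.03 ± 0.22 (SE, limma adjusted p = 0.0178). DESeq2 also called it (adjusted p = 0.00955) and edgeR did not (adjusted p = 0.0667). Counting Klf2, both KO-named libraries were above both R1-named libraries for 5 of the 9 genes and below for 0, against 32.2% and 34.2% of all accessions.

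**Figure D1:**
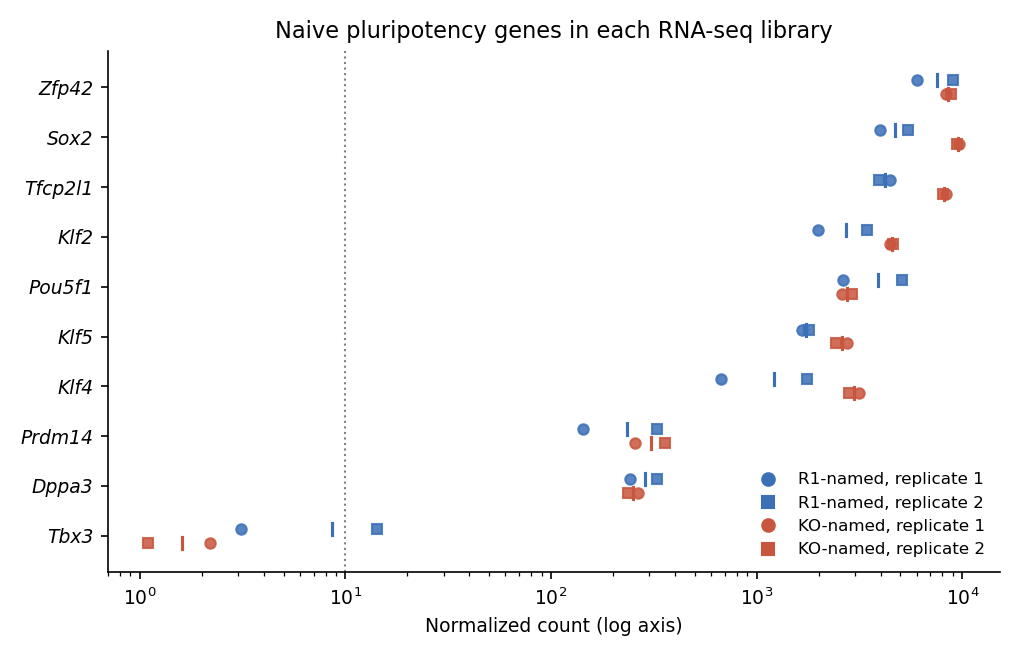
Normalized counts (log axis) of the 10 naive genes in the 4 RNA-seq libraries, with circles for replicate 1, squares for replicate 2, short bars for the mean of each genotype name and a dotted line at the filter of 10. Sox2, Tfcp2l1, Klf2, Klf5 and Klf4 had both KO-named values above both R1-named values, and Tbx3 (its more abundant accession) lay near or below the filter.

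Zfp42 (Rex1; NM_009556, chr8:44380422-44392363), a widely used reporter of the naive state, had 6014.9 and 8991.2 normalized counts in the R1-named libraries and 8329.6 and 8763.8 in the KO-named libraries. The KO-named values lay inside the R1-named range, and the log2 difference of 0.22 ± 0.19 (SE) did not pass the test (limma adjusted p = 0.43). It was -0.07 without R1-named replicate 1 and 0.51 without R1-named replicate 2. With chromosome medians removed it was 0.45 ± 0.16 (SE), still not past the threshold (limma adjusted p = 0.0883).

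Pou5f1 (chr17:35642982-35647721) was counted in part only. Reads that fit both of its accessions were not assigned, NM_001252452 was under the filter, and processed pseudogenes of Pou5f1 can take further reads from unique mapping. NM_013633 had 2641.6 and 5110.2 normalized counts in the R1-named libraries and 2585.9 and 2907.9 in the KO-named libraries, so R1-named replicate 2 stood apart from the other 3. The log2 difference of -0.42 ± 0.28 (SE) did not pass the test (limma adjusted p = 0.301). It was 0.05 without R1-named replicate 2, and -0.90 without R1-named replicate 1, where it was called lower.

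Dppa3 (Stella; NM_139218, chr6:122576428-122580290), a maternal and germline factor that protects DNA methylation, had 241.3 and 328.3 normalized counts in the R1-named libraries and 263.3 and 235.9 in the KO-named libraries. The groups overlapped, with a log2 difference of -0.17 ± 0.23 (SE, limma adjusted p = 0.606). Prdm14 (NM_001081209, chr1:13103538-13117244), a PR-domain factor that holds back FGF signalling and DNA methyltransferases in naive cells, had 142.7 and 326.1 against 255.6 and 359.1. Its log2 difference of 0.49 ± 0.39 (SE, limma adjusted p = 0.394) was -0.02 once the shift of chromosome 1 was removed.

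Tbx3 (chr5:120120678-120134733), a T-box factor of the LIF-responsive arm, had at most 14.2 normalized counts in any library over its accessions NM_011535 and NM_198052. Reads common to both were not assigned, so its level cannot be read from these tables and it was not tested. Nanog, with 4 accessions, was at 0.0 in every library and Esrrb, with 2, at 3.3 or less, and neither is measured here for the same reason.

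**Figure D2:**
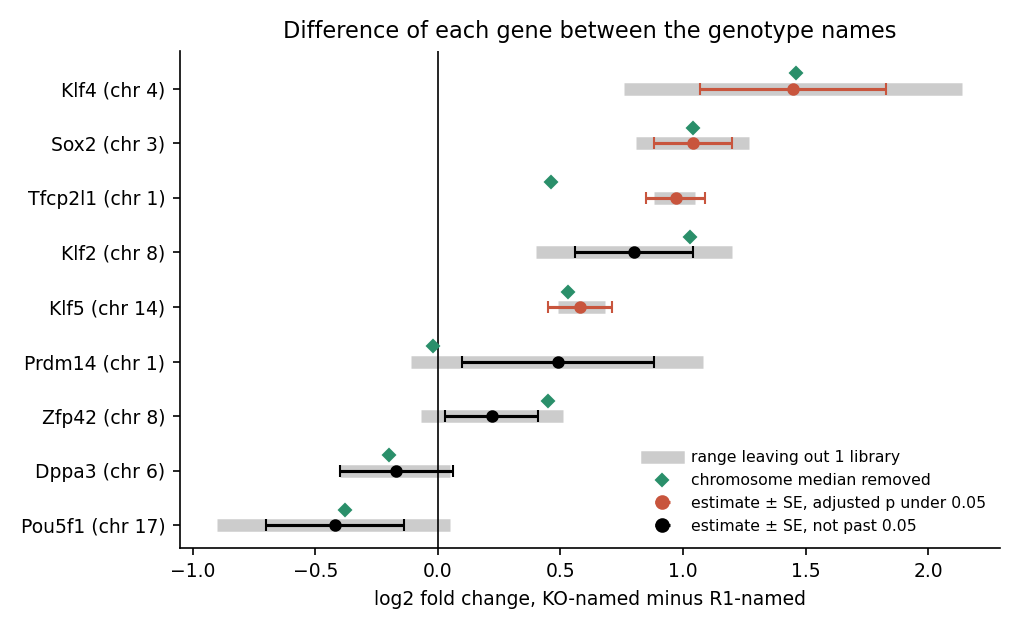
log2 difference (KO-named minus R1-named, horizontal axis) of the 9 genes tested, with points and bars for the limma estimate and its SE, grey bands for the range when 1 of the 4 libraries is left out and diamonds for the estimate with the chromosome's median removed. The bands of Klf4, Sox2, Tfcp2l1, Klf2 and Klf5 stay above 0, while those of Prdm14, Zfp42, Dppa3 and Pou5f1 cross it.

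The naive genes, like all accessions, differed more between the R1-named replicates than between the KO-named replicates. The median absolute log2 ratio was 0.58 and 0.16 for the naive genes, and 0.35 and 0.16 for all accessions. For 8 of the 9 genes R1-named replicate 2 was above replicate 1, by 2.59-fold for Klf4, 2.28-fold for Prdm14, 1.93-fold for Pou5f1 and 1.74-fold for Klf2, with Tfcp2l1 the exception at 0.89. The median log2 ratio of the 9 genes was 0.58, where all accessions had a median of -0.01 and a 5th to 95th percentile range of -1.24 to 1.07. Klf4 and Prdm14 lay above that range. Between the KO-named replicates, 4 of 9 genes were higher in replicate 2, the median log2 ratio was -0.03, and no gene lay outside the range of all accessions, -0.81 to 0.73. Without R1-named replicate 1 the count of naive genes called was 5 higher and 1 lower (Pou5f1), and without R1-named replicate 2 it was 7 higher, Klf2, Zfp42 and Prdm14 being added. Calls over all accessions also rose in these fits, to 24.1% higher and 25.1% lower without R1-named replicate 1 and to 21.5% and 23.1% without R1-named replicate 2. In such fits the lone library is assumed to vary like the other genotype's pair.

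**Figure D3:**
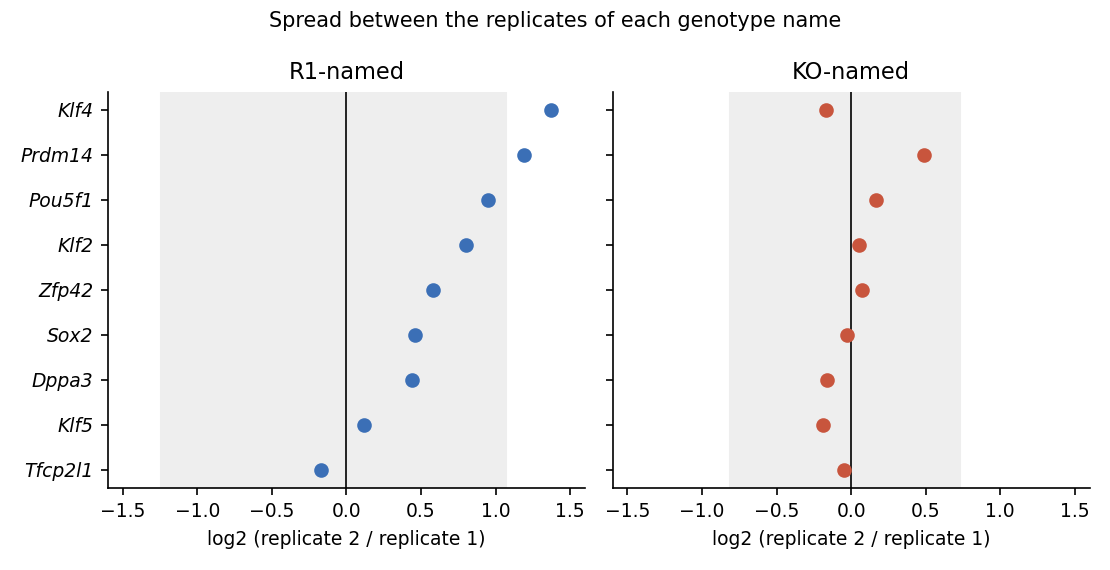
log2 ratio of replicate 2 to replicate 1 for the 9 naive genes tested (points), in the R1-named libraries at left and the KO-named libraries at right, with grey for the 5th to 95th percentile of all 11113 accessions. In the R1-named pair 8 of 9 genes lie above 0, and in the KO-named pair the genes lie on both sides of it.

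Per kilobase of annotated exon, which allows levels of different genes to be set side by side, the naive genes covered a wide range. In the R1-named libraries the mean level per kilobase was 4168 for Zfp42, 1913 for Sox2, 1718 for the part of Pou5f1 that was counted, 1471 for Klf2, 1005 for Klf5, 452 for Tfcp2l1, 396 for Klf4, 319 for Dppa3 and 91.4 for Prdm14. Neighbours in this order from Sox2 to Klf2 had overlapping replicates, as had neighbours from Tfcp2l1 to Dppa3. Zfp42 stood above 99.5% of the genes measured and Prdm14 above 56.1%. In the KO-named libraries Sox2 rose to 3890 per kilobase, closest to Zfp42 at 4748. The exon length is that of all of a gene's GENCODE M1 exons joined, 9269 bases for Tfcp2l1, so a gene expressed from a shorter transcript is understated.

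In the KLF family more genes were called higher than lower. Of 17 family genes, 16 were tested, 6 were called higher and 1 lower, where 9.84% of all accessions were called higher and 10.7% lower. The median log2 difference was 0.53, against -0.03 for all accessions. These counts and this median include the naive genes Klf2, Klf4 and Klf5, so they are not independent of the values given above. The counts were 9 and 2 without R1-named replicate 1 (24.1% and 25.1% of all accessions) and 9 and 3 without R1-named replicate 2 (21.5% and 23.1%). Beside Klf4 and Klf5 the genes called higher were Klf17 (4.16-fold, from 9.3 and 22.9 to 56.2 and 73.7 normalized counts, limma adjusted p = 0.0365), Klf10 (2.14-fold), Klf3 (1.62-fold) and Klf9 (1.58-fold). The log2 difference of Klf17 was 1.45 without R1-named replicate 1 and 2.66 without R1-named replicate 2. Klf10 has 2 accessions and was counted in part. Klf12, a repressor of the family, was called lower at 0.32 of the R1-named level. Klf2, Klf4 and Klf5 together took 37.1% and 49.6% of the family's normalized counts in the R1-named libraries and 54.1% and 53.0% in the KO-named libraries.

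The LIF-STAT3 arm, which feeds Klf4 and Tfcp2l1, held calls in both directions. Of 10 genes 9 were tested, 2 were called higher and 1 lower, and the median log2 difference was -0.14, where 9.84% of all accessions were called higher and 10.7% lower. The counts were 3 higher and 3 lower without R1-named replicate 1 (24.1% and 25.1% of all accessions) and 3 and 4 without R1-named replicate 2 (21.5% and 23.1%). Socs3, the feedback inhibitor of the pathway and a direct STAT3 target, had 1584.2 and 2081.2 normalized counts in the R1-named libraries and 3218.3 and 3297.6 in the KO-named libraries (1.79-fold, limma adjusted p = 0.0126). The kinase gene Pim3 was higher by 1.84-fold (limma adjusted p = 0.00582). Gbx2, a homeobox gene that STAT3 can induce, was lower at 0.335 of the R1-named level (limma adjusted p = 0.0369), and its log2 difference was -2.18 without R1-named replicate 1 and -0.98 without R1-named replicate 2. The receptor subunit Lifr, with 2 accessions, had a log2 difference of 0.43 and did not pass the test (limma adjusted p = 0.0952), and Stat3 itself, with 3 accessions, was listed at 0.0. In the CP2 family, to which Tfcp2l1 belongs, 4 of 6 genes were tested. Grhl3 was called higher (1.69-fold) and Grhl2 lower (0.523 of the R1-named level), while Tfcp2 and Ubp1, the closest relatives of Tfcp2l1, were under the filter and have 2 accessions each.

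Among other genes of the pluripotency network more were called lower than higher. Of 28 genes 21 were tested, 4 were called higher and 7 lower, with a median log2 difference of -0.40, against 9.84% and 10.7% of all accessions. Without R1-named replicate 1 the counts were 5 higher and 12 lower (24.1% and 25.1% of all accessions), and without R1-named replicate 2 they were 5 and 8 (21.5% and 23.1%). Dppa5a, an RNA-binding protein of naive cells, had 6834.9 and 8611.6 normalized counts in the R1-named libraries and 14185.6 and 14435.4 in the KO-named libraries (1.87-fold). The genes called lower included Dppa2 (0.375 of the R1-named level), Tet2 (0.399), Nacc1 (0.433), the LINE-1-derived L1td1 (0.450), Gdf3 (0.479) and Sall4 (0.567, counted in part over 3 accessions). The median log2 difference of the naive genes was 0.58, and 0.46 with chromosome medians removed, where 5 of the 9 were called higher against 9.75% of all accessions.

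Formative and primed genes were called lower or not called. Of 14 genes 8 were tested, and 4 were called lower and 0 higher by limma and by edgeR, where limma called 10.7% of all accessions lower. The counts were also 4 and 0 at an unadjusted limma p under 0.05 (19.8% of all accessions lower). The median log2 difference was -1.09, between Sox3 (-1.31) and Foxd3 (-0.87). Sox3 had 15.5 and 29.5 normalized counts in the R1-named libraries and 7.7 and 8.4 in the KO-named libraries. It passed the filter only through the R1-named libraries, so its value is not support for a difference. Without Sox3 the median is the value of Foxd3. The count called lower was 7 without R1-named replicate 1 (25.1% of all accessions), 4 without R1-named replicate 2 (23.1%) and 3 with chromosome medians removed (10.4%). Zic2, a zinc-finger factor of primed cells, had 189.3 and 288.0 normalized counts in the R1-named libraries and 13.2 and 13.7 in the KO-named libraries (0.062 of the R1-named level, limma adjusted p = 0.00199). N-cadherin (Cdh2) had 205.6 and 115.6 against 14.3 and 13.7, and Pou3f1 (OCT6), a POU factor of the epiblast, had 379.4 and 194.2 against 55.1 and 68.5. Etv4, a target of FGF signalling, was at 0.583 of the R1-named level and was no longer called with chromosome medians removed (limma adjusted p = 0.0865). Fgf5, Otx2, Dnmt3a and Dnmt3b, which define this state, have several accessions each and were at or near 0, so they were not measured.

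Most markers of other cells were near or under the filter, but Thy1 in the KO-named libraries and Col1a1 and Hand1 (195.5 and 175.3) in R1-named replicate 1 exceeded Prdm14 in the same libraries. The 11 extraembryonic markers summed to 148.3 to 312.7 normalized counts in the R1-named libraries and 60.0 to 113.5 in the KO-named libraries, and 0 of 5 tested were called by limma or edgeR, 2 being lower at an unadjusted limma p under 0.05, where 9.84% of all accessions were called higher and 10.7% lower, and 17.8% and 19.8% at an unadjusted p. With so few genes tested, an absence of calls is near that background. Sox17 and Eomes were at 0.0 throughout, both with several accessions. The 10 germ layer markers summed to 57.4 to 110.2 and 79.3 to 97.9, and the 7 of 8 markers of 2-cell-like cells that have an accession to 107.8 to 147.3 and 167.5 to 178.0. There was no limma or edgeR call among the 5 and 3 tested, and 1 gene was higher in each at an unadjusted limma p under 0.05. The germ layer gene was Tbx6 (10.9 and 3.3 R1-named, 26.4 and 31.6 KO-named), which passed the filter only through the KO-named libraries. Meox1 (9.3 and 26.2 against 6.6 and 2.1) passed it only through the R1-named libraries. Counts of germ layer markers that rest on either gene, also with 1 library left out, are not support for a difference. Without R1-named replicate 1, where 24.1% of all accessions were called higher and 25.1% lower, 1 extraembryonic marker was lower, 1 germ layer marker higher and 1 lower, and 1 marker of 2-cell-like cells higher. Without R1-named replicate 2 (21.5% and 23.1%), 1 extraembryonic marker was lower, 1 marker of 2-cell-like cells higher and 3 feeder markers lower, against 2 with all libraries. Of 9 feeder fibroblast markers, which summed to 318.5 to 373.2 in the R1-named and 511.2 to 576.1 in the KO-named libraries, 4 were tested. Col1a1 was lower at 0.256 of the R1-named level, whereas Thy1, at 449.5 and 510.8 against 109.4 and 125.4, was higher. Twist1, at 19.4 and 19.6 in the R1-named libraries and 1.1 and 0.0 in the KO-named libraries, passed the filter only through the R1-named libraries, so its call, counted among the feeder markers, is not support for a difference. Postn, Dcn and Pdgfrb were at 0.0 in all libraries, and each has several accessions. The part of these markers in the differences of the naive genes was not tested.

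H3K27me3, the mark that PRC2 lays down at silenced developmental genes, was compared at the naive genes in the ChIP-seq peak lists, whose genotype labels and names do not conflict. Of the 10 genes, 1 had a peak within 2 kb of an annotated start in the WT list of 6957 peaks, and 1 in the H1-TKO list of 6262 peaks, where 14.4% and 13.1% of all protein-coding genes did. It was Prdm14 in both. The WT peak, chr1:13114762-13115445, began 1799 bases downstream of the start with a score of 117, and the H1-TKO peak, chr1:13114456-13115658, began 1586 bases downstream with a score of 144. The score is 10 times the negative log10 of the peak's p-value, the lowest in either list being 50, and with 1 list per genotype the difference in score or in width (684 and 1203 bases) has no replicate check.

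The central 300 bases of the part that both lists share are printed because this is the only H3K27me3 peak near a start of a naive gene, with CpG dinucleotides in capitals.
Prdm14 peak (chr1:13114954-13115253, plus strand): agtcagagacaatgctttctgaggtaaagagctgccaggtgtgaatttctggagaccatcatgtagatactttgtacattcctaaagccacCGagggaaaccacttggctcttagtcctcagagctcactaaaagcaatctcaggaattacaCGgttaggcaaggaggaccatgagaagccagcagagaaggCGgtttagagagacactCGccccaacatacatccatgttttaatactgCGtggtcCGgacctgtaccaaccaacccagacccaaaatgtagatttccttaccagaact
The shared part spans an end of the large coding exon of Prdm14 (coding sequence chr1:13115247-13115916) and the intron that follows it. The printed stretch held 6 CpGs and had a GC content of 47.0%, and the ratio of observed to expected CpGs over the shared part was 0.36.

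**Figure D4:**
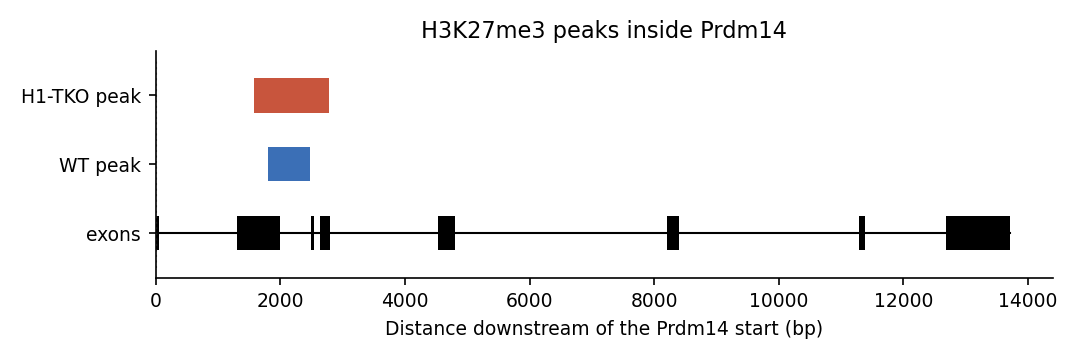
The H3K27me3 peaks inside Prdm14 in the WT and H1-TKO lists (bars) above the gene's exons (black), along the distance downstream of its start in bases. Both peaks cover the end of the large coding exon and intron sequence after it, and the H1-TKO peak, 1203 bases wide, contains the WT peak, 684 bases wide. The H1-TKO peak, which ends at 2789, also reaches the exons at 2491 to 2545 and 2643 to 2801, and the WT peak, which ends at 2483, does not.

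The other 9 genes had no peak within 5 kb of a start in either list. Near Dppa3 a WT peak with a score of 65.1 lay 7.5 kb from the start and the closest H1-TKO peak 84.8 kb away. Near Tbx3 a WT peak scoring 72.3 lay 6.6 kb away and the closest H1-TKO peak 160.6 kb away. For Klf4 the closest WT peak, at 41.8 kb, scored 55.8, close to the lowest score called, and the closest H1-TKO peak was 1609.3 kb away. A peak near Pou5f1 was in both lists at 35.9 kb, with scores of 164 in WT and 187 in H1-TKO. Around Sox2, Klf5 and Tfcp2l1 the closest peaks of either list were 840.9, 559.4 and 530.7 kb away.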

How the data were processed

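RNA-seq libraries were poly(A)-selected and paired-end. The authors mapped reads with Subread to the mm9 gene models, counted uniquely mapped reads per RefSeq accession with featureCounts and divided them by DESeq2 size factors, so the deposited RNA-seq signal is a normalized count per accession. Versions were not given in the sources used here. Every deposited value was a whole multiple of 1 read's worth, and reads were recovered by that division. The 10 genes and the comparison lists were chosen with earlier results of these data known.

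Of 34010 accessions, 33650 were paired with a symbol through the RefSeq gene table. A gene with several accessions was represented by its most abundant accession. Differences (KO-named minus R1-named) were tested with limma 3.58.1 (trended empirical Bayes) on log2(normalized count + 1) for accessions with a mean of at least 10, with Benjamini-Hochberg adjustment over all 11113 accessions tested. Fold changes are on that scale, which understates changes of low genes. The edgeR 4.0.16 quasi-likelihood test and DESeq2 1.42.0 on the recovered reads, other filters, pseudocounts and scalings, leaving out each library and removing each chromosome's median were alternatives. The limma step was tested on simulated data.

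For ChIP-seq the authors used bowtie2 on the mm9 assembly, and MACS for peak calling. The deposited peak score is 10 times the negative log10 of the peak's p-value. Peaks within 2 kb of a GENCODE M1 start were counted, with no test, because 1 list per genotype was used. Each peak list comes from 1 replicate as far as the labels say.

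For the text, all 10 members were named, and from each comparison list the genes past adjusted p 0.05, at most 8 by size of fold change. A gene that this rule would name is not reported here. No gene was sought by likeness of pattern, because 4 libraries in 2 groups cannot rank it.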

Additional observations from a re-analysis of the deposited data

How the results depend on the processing

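Of the 9 naive genes tested, the log2 difference of Sox2, Klf4, Klf5, Tfcp2l1 and Klf2 kept its direction under all 15 alternatives. Without a filter on low values, 0 naive genes were called by limma (3 higher at an unadjusted p under 0.05) and only 75 accessions were higher and 1 lower, and with a mean of at least 1 the counts over all accessions were 702 and 765. Leaving out 1 library each gave 199 to 2682 accessions higher and 386 to 2786 lower, and 3 to 7 naive genes higher and 0 to 1 lower. Over those fits the log2 difference ran from -0.07 to 0.51 for Zfp42 and from -0.11 to 1.08 for Prdm14, below 0 without R1-named replicate 1, and from -0.90 to 0.05 for Pou5f1 and from -0.40 to 0.05 for Dppa3, above 0 without R1-named replicate 2. The direction also turned for Prdm14 (-0.02) with chromosome medians removed; the cause was not tested. With the replicate number as a block, 5 naive genes were higher and 1 lower, Klf2 and Pou5f1 (adjusted p = 0.0431) being added, against 4 and 0, and 1521 accessions were higher and 1778 lower; the numbers pair nothing that the labels state. The peak counts were 1 and 1 within 5 kb and at a score of at least 100. Scaling moved the median log2 difference of all accessions by less than 0.1.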
